A study of Mus musculus with 12 samples.

Results

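Glial lineage markers, 8 genes in all, were followed through 4 groups of mouse cerebella at postnatal day 3. Gja1, Aqp4, Slc1a3 and Gdf10 mark astroglia, which in the cerebellum include the Bergmann glia. Sox10, Nkx2-2, Pdgfra and Cspg4 mark the oligodendrocyte lineage. The members were the probe sets that the authors' deposited table of the BaxBak comparison gave 1 of these symbols. That gave 31 probe sets of 8 genes, among 30939 probe sets of 7918 genes with 1 symbol and 719071 probe sets measured on each array. Of the 31, 22 lay in an exon region and 9 spanned an exon junction, and 3 genes (Gja1, Aqp4 and Nkx2-2) had a single probe set.

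The study measured whole cerebellum RNA of C57BL/6 mice on 12 exon and junction arrays, 3 per group, to see what loss of Atr does in a background without Bax and Bak or without p53. Atr is a kinase that guards cells against replication stress, Bax and Bak open mitochondria during apoptosis, and p53 drives the response to DNA damage. The Atr BaxBak mutants carried Math1-Cre, loxP/loxP alleles of both Atr and Bax, and Bak--/-. Their BaxBak controls carried Math1-Cre, loxP/loxP alleles of Bax, and Bak--/-, with no loxP allele of Atr listed. The Atr p53 mutants carried Math1-Cre and loxP/loxP alleles of both Atr and p53. Their p53 controls carried Math1-Cre and loxP/loxP alleles of p53. Every animal therefore carried Math1-Cre, a Cre driver active in the granule cell lineage, and both BaxBak groups carried Bak--/- in every cell.

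Astroglia take up glutamate, couple to each other through gap junctions and hold the water balance of the tissue, and Bergmann glia guide granule cells as these migrate inward. Oligodendrocyte precursors divide in response to PDGF ligands, which they sense through Pdgfra, and later switch on the transcription factor programme that leads to myelin. In the first postnatal week of the mouse cerebellum both lineages are expanding while granule cell precursors proliferate at the surface.

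A probe set carried a symbol if it had passed the authors' own comparison of the BaxBak mutants with their controls, with a step-up p-value under 0.05, the lowest among the members being 0.00635. The BaxBak differences below are therefore a description of how the members were chosen, with no test, and so is any comparison that uses those arrays. The p53 arrays did not choose the members, and the p53 comparison was tested. In RNA of whole tissue, a change in the number of cells of a type and a change in RNA per cell cannot be told apart. Whether animals within a group were littermates is not in the labels.

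The medians of the 12 arrays ran from 6.46 to 6.49 on the log2 scale. The 5222 negative control probe sets averaged 4.43 in the Atr BaxBak mutants (range 4.32 to 4.58) and 4.11 in the BaxBak controls (range 3.97 to 4.20), 0.33 apart, and 4.30 in the Atr p53 mutants and 4.23 in the p53 controls. Sample titles carry a number prefix whose meaning the labels do not give. All Atr BaxBak mutants shared a prefix that no other group had, so prefix and genotype cannot be told apart there, whereas the Atr p53 mutants shared theirs with p53 control 1. No probe set was named Atr, so the deletion itself was not checked. Trp53 averaged 9.74 over its 6 named probe sets in the Atr BaxBak mutants and 9.07 in the BaxBak controls, and 8.78 in the Atr p53 mutants and 8.67 in the p53 controls.

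RefSeq promoter windows (mouse build GRCm38.p6) of 6 of the 8 members were used here. The promoters of Gja1, the member nearest to the threshold in the p53 comparison, of Slc1a3, whose controls lay apart between backgrounds, and of Pdgfra and Cspg4, which mark the same precursors and stood on opposite sides of their controls, are printed as the 250 bases before the start, 5′ to 3′ on the gene's strand. They lie at chr10:56377050-56377299 on the + strand (Gja1), chr15:8710808-8711057 on the - strand (Slc1a3), chr5:75152001-75152250 on the + strand (Pdgfra) and chr9:56864854-56865103 on the + strand (Cspg4). Capitals mark a TGAGTCA, the site letters of AP-1, in Gja1, and in Slc1a3 a TATAAA read on the opposite strand.
Gja1: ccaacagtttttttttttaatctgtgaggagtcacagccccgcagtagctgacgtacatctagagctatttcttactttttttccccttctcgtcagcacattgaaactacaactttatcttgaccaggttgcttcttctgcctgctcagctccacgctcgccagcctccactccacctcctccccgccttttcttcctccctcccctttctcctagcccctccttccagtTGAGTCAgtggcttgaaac
Slc1a3: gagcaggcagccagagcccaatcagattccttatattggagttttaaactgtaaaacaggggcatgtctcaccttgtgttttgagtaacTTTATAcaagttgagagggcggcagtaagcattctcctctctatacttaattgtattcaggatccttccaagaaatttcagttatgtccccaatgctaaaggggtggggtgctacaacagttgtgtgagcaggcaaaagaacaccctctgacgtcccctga
Pdgfra: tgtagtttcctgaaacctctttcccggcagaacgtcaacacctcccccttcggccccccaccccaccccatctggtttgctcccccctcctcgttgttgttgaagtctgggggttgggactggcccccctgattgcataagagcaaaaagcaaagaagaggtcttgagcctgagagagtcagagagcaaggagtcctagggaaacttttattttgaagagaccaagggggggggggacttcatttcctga
Cspg4: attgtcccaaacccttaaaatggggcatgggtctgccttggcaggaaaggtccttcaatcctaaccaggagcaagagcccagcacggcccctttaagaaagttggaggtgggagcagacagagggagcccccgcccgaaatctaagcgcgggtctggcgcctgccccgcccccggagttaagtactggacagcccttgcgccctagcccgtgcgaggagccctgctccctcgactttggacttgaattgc
The window of Gja1 alone among the 6 held TGAGTCA, which 4.46% of 32851 mouse promoter windows of this length hold on either strand. That of Slc1a3 alone held TATAAA, present in 12.4% of windows. The SOX core letters ACAAAG (16.5% of windows) and ACAATG (10.7%) were in none of the 6. No motif overlapped another. The GC content ran from 44.8% in Slc1a3, through 54.4% in Pdgfra, 56.4% in Nkx2-2 and 60.4% in Cspg4, to 78.8% in Gdf10, against a median of 52.4% over all windows.

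The astroglial members stood highest in the Atr BaxBak mutants. Gja1, which encodes the main gap junction protein of astrocytes, read 6.97, 7.05 and 7.09 on the log2 scale in the Atr BaxBak mutants and 5.53, 5.35 and 6.20 in the BaxBak controls, a difference of 1.34 (2.53-fold). It read 6.31, 6.09 and 6.08 in the Atr p53 mutants and 5.59, 5.52 and 5.82 in the p53 controls. In both backgrounds the lowest mutant lay above the highest control for this gene, and the third BaxBak control was far above the other 2.

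Aqp4, the water channel of astrocyte endfeet, read 7.05, 6.66 and 6.86 in the Atr BaxBak mutants and 5.85, 5.63 and 6.01 in the BaxBak controls, a difference of 1.03 (2.04-fold). It read 5.53, 5.68 and 5.46 in the Atr p53 mutants and 5.51, 5.69 and 5.88 in the p53 controls. Only the BaxBak mutants stood apart, and the other 3 groups overlapped in order. Its 1 probe set is an exon region that the annotation ties to a single UCSC transcript, uc008edq.2.

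Slc1a3, the glutamate transporter GLAST of Bergmann glia, averaged 7.50 ± 0.06 over its 5 probe sets in the Atr BaxBak mutants and 6.59 ± 0.12 in the BaxBak controls (SD, n = 3 each), a difference of 0.91. It averaged 7.03 ± 0.21 in the Atr p53 mutants and 7.18 ± 0.23 in the p53 controls (SD, n = 3 each). Slc1a3 was the 1 member whose BaxBak controls lay below both p53 groups without overlap: the p53 controls exceeded the BaxBak controls by 0.59. That offset was not shared by all its probe sets. In the exon region that the annotation ties to the RefSeq transcript NM_148938, the controls of the 2 backgrounds differed by -0.07, and in the 4 without a RefSeq transcript by 0.63 to 0.85. The RefSeq exon region read 7.63, 7.78 and 7.95 in the Atr BaxBak mutants and 7.14, 7.23 and 7.29 in the BaxBak controls, a difference of 0.56, while the other 4 differed by 0.86 to 1.13.

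Gdf10, a secreted ligand of the TGF-beta family expressed by Bergmann glia, averaged 12.16 ± 0.11 in the Atr BaxBak mutants and 11.32 ± 0.19 in the BaxBak controls (SD, n = 3 each), a difference of 0.84. It averaged 11.57 ± 0.20 in the Atr p53 mutants and 11.59 ± 0.12 in the p53 controls (SD, n = 3 each). Its 5 probe sets were alike, each 0.68 to 1.04 higher in the Atr BaxBak mutants.

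**Figure D1:**
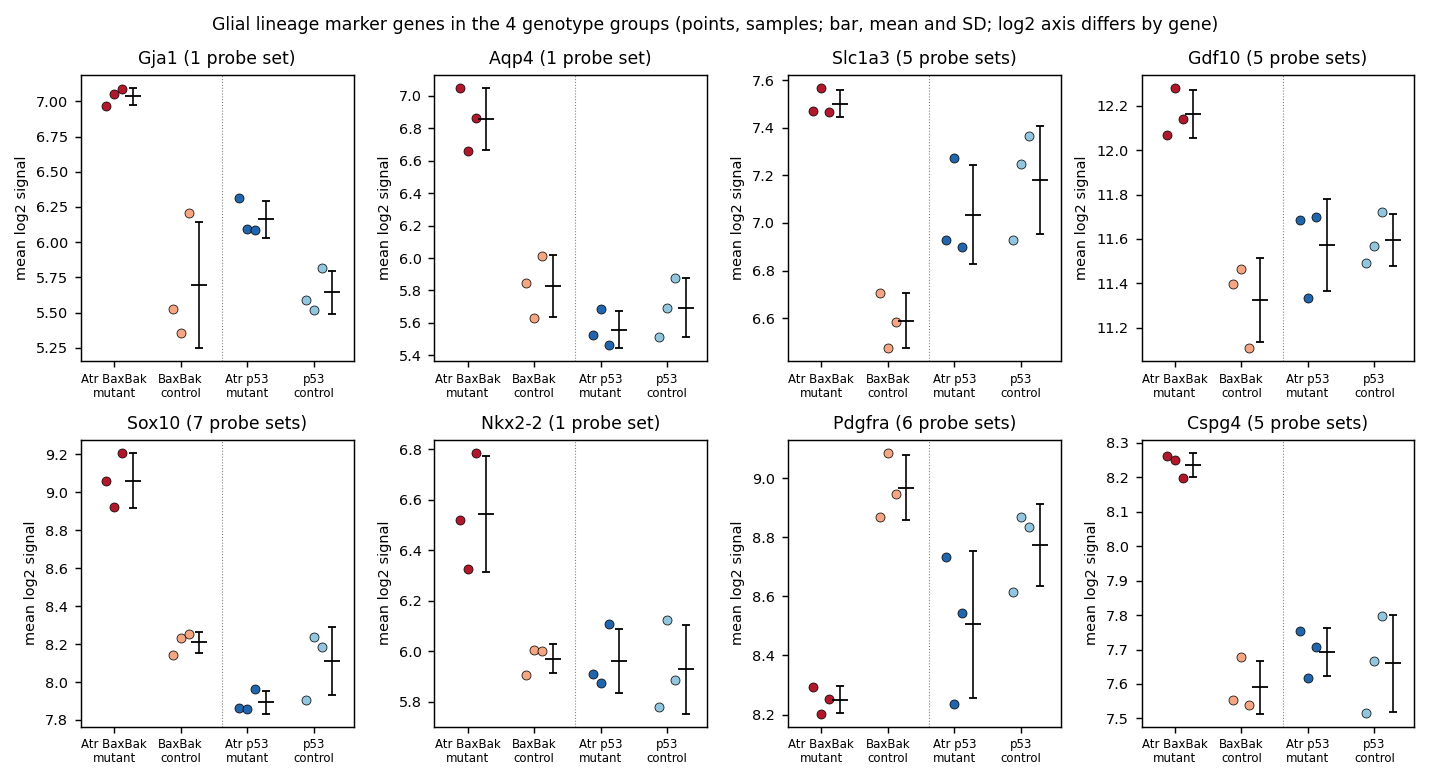
Log2 signal (vertical axis) of the 8 members in each of the 12 cerebella, by group, with points for samples and bars for group means and SD; each gene's value is the mean over its named probe sets. Atr BaxBak mutants stand highest in 7 genes and lowest in Pdgfra, and the Atr p53 mutants clear the p53 controls in Gja1 only.

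The oligodendrocyte members split, with 3 higher and Pdgfra lower in the Atr BaxBak mutants. Sox10, the transcription factor that marks the lineage at all stages, averaged 9.06 ± 0.14 over 7 probe sets in the Atr BaxBak mutants and 8.21 ± 0.06 in the BaxBak controls (SD, n = 3 each), a difference of 0.85 (1.81-fold). It read 7.86, 7.86 and 7.96 in the Atr p53 mutants and 7.90, 8.24 and 8.18 in the p53 controls. The Atr p53 mutants and p53 control 1 lay together, under the other p53 controls.

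Its probe sets differed in size. One exon region read 8.51, 8.12 and 8.60 in the Atr BaxBak mutants and 6.94, 7.04 and 6.80 in the BaxBak controls, a difference of 1.48, and a neighbouring one differed by 1.33. The single junction differed by 0.43, the least of the 7. Sox10 also marks Schwann cells, of whose list 3 of 10 genes had a symbol, and of these Cdh19 lay under the negative controls in all 4 groups.

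Nkx2-2, a homeodomain factor of maturing oligodendrocyte precursors, read 6.52, 6.33 and 6.79 in the Atr BaxBak mutants and 5.90, 6.00 and 6.00 in the BaxBak controls, a difference of 0.58 (1.49-fold). It read 5.91, 5.87 and 6.11 in the Atr p53 mutants and 5.78, 6.12 and 5.89 in the p53 controls. The Atr BaxBak mutants alone stood clear, and the other 9 arrays lay together.

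Cspg4, the NG2 proteoglycan of oligodendrocyte precursors and also of pericytes, averaged 8.24 ± 0.03 in the Atr BaxBak mutants and 7.59 ± 0.08 in the BaxBak controls (SD, n = 3 each), a difference of 0.65. It averaged 7.69 ± 0.07 in the Atr p53 mutants and 7.66 ± 0.14 in the p53 controls (SD, n = 3 each). All 5 probe sets were higher in the Atr BaxBak mutants, by 0.42 to 0.77. The other 4 named endothelial and pericyte genes were also higher there, and their part in the value of Cspg4 was not tested.

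Pdgfra, the PDGF receptor that drives division of the same precursors, stood lower. It read 8.29, 8.20 and 8.25 in the Atr BaxBak mutants and 8.87, 9.08 and 8.95 in the BaxBak controls, a difference of -0.72, or 1.64-fold lower. It read 8.73, 8.24 and 8.54 in the Atr p53 mutants and 8.61, 8.87 and 8.83 in the p53 controls. Every Atr BaxBak mutant lay under every BaxBak control, whereas the p53 groups overlapped.

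Of the 6 Pdgfra probe sets, 5 were lower in the mutants of both backgrounds. The exception was a junction that the annotation ties to the RefSeq transcript NM_011058 and not to NM_001083316. This junction read 8.27, 8.37 and 8.34 in the Atr BaxBak mutants and 7.73, 7.99 and 7.86 in the BaxBak controls, a difference of 0.46, and it differed by 0.21 between the Atr p53 mutants and p53 controls with overlap. The other 5 probe sets, tied to both RefSeq transcripts, differed by -0.61 to -1.84 in the BaxBak background. The widest was a junction at 3.59, 3.40 and 3.28 in the Atr BaxBak mutants, not above the negative controls there, and 5.05, 5.34 and 5.41 in the BaxBak controls. Set against each mutant array's negative control mean, that junction was at least 1.78-fold lower in the Atr BaxBak mutants.

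Pdgfra is also made by meningeal fibroblasts, and the protocol states that the meninges were taken off before extraction. Of that list 3 of 11 genes had a symbol. Besides Pdgfra they were Col1a1, a fibrillar collagen, with a difference of -0.98, and Bgn, a small proteoglycan, with a difference of 0.95 between the Atr BaxBak mutants and BaxBak controls. With Pdgfra included, the mean level of the list ran from 7.08 to 7.12 in the Atr BaxBak mutants. In the BaxBak controls it ran from 7.29 to 7.44. The median difference of the 2 genes other than Pdgfra was -0.02. The part of meningeal cells in the value of Pdgfra was not tested.

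**Figure D2:**
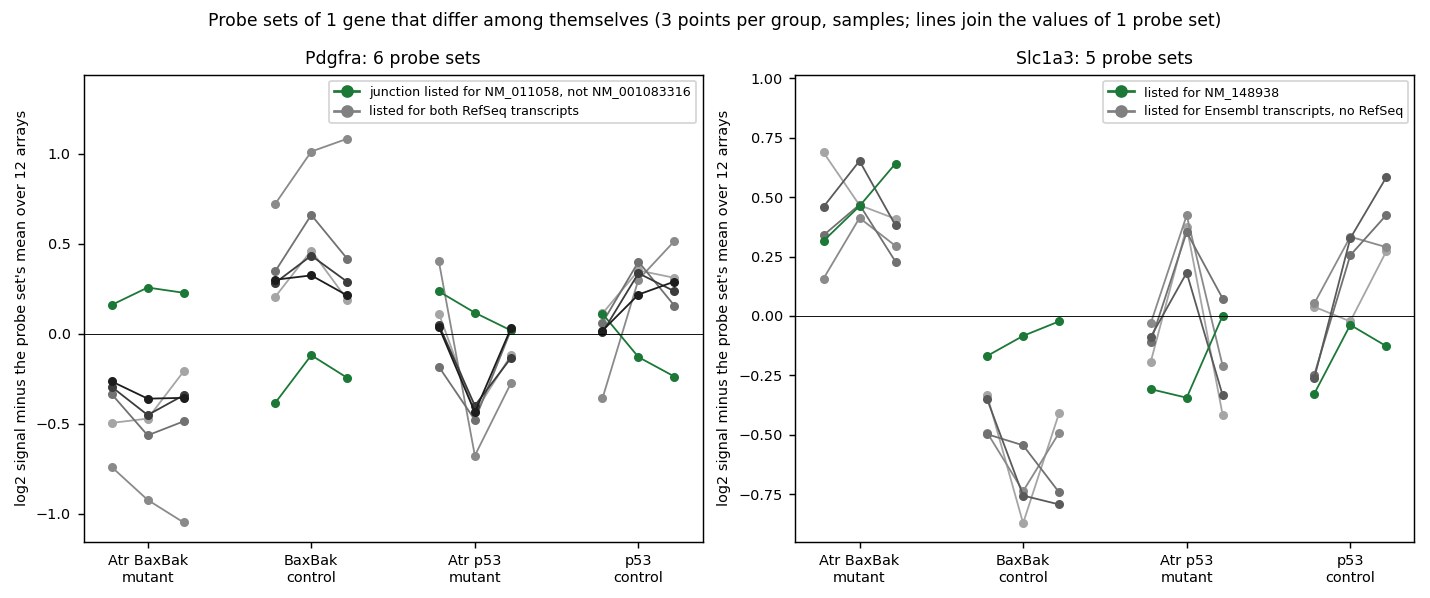
Log2 signal minus the probe set's mean over 12 arrays (vertical axis) of each Pdgfra and Slc1a3 probe set by group, with a point per sample and a line joining the 3 values of 1 probe set. The green Pdgfra junction stands 0.46 higher in the Atr BaxBak mutants while the other 5 stand lower, and the green Slc1a3 exon region lacks the offset of 0.63 to 0.85 between p53 controls and BaxBak controls that the other 4 show.

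Counted over probe sets, 26 of the 31 members were higher and 5 lower in the Atr BaxBak mutants, with a median difference of 0.69, against -0.02 over all 719071 probe sets. All 31 members had groups that did not overlap, as did every probe set with a symbol (35.4% higher and 64.6% lower), since the choice of symbols used this contrast, and nothing is read from it. Among the 7918 named genes 40.7% were higher in the Atr BaxBak mutants, with a median of -0.34.

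In the p53 background no member gene passed the test. Gja1 came nearest: it was higher in the Atr p53 mutants by 0.52 ± 0.10 (SE), or 1.43-fold. Its limma p was 0.00103, and 0.0784 after adjustment over 7918 genes. The same values, those of its single probe set, had an SE of 0.14 in the fit over all probe sets. There the limma p was 0.00751 and the adjusted p 0.859. Groups that did not overlap were found for 9.02% of named genes on the higher side and 18.0% on the lower side. An exact permutation test of the 3 against 3 samples gave p = 0.1 (two-sided), the smallest this design allows. The other 7 genes differed by -0.27 (Pdgfra) to 0.03 (Nkx2-2), with limma's adjusted p from 0.268 (Sox10) to 0.936 (Gdf10). Over the 7918 genes, limma called 0.808% (0.518% higher and 0.29% lower), and 0 of the 8 members were among them. At an unadjusted p under 0.05, 1 of 8 members passed (Gja1), against 19.8% of named genes.

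Sox10 differed by -0.21 ± 0.10 (SE), with all 7 of its probe sets lower in the Atr p53 mutants, and its limma adjusted p was 0.268. Pdgfra differed by -0.27 ± 0.13 (SE), with limma's adjusted p = 0.296. Aqp4 differed by -0.14 ± 0.11 and Slc1a3 by -0.15 ± 0.14 (SE), while Gdf10, Nkx2-2 and Cspg4 differed by -0.02, 0.03 and 0.03.

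Against p53 control 1 alone, which shares the title prefix of all 3 Atr p53 mutants, Gja1 differed by 0.57, close to its value against all 3 controls. Sox10 differed by -0.01 and Pdgfra by -0.11 there. Aqp4 (0.04), Slc1a3 (0.11) and Gdf10 (0.08) stood on the other side of 0 from their values against all 3 controls. Nkx2-2 and Cspg4 differed by 0.18 each. With the prefix as a block in limma's fit, which gives these same differences and takes its spread from the arrays that share a prefix, no member passed: Gja1 had an SE of 0.15 and an adjusted p = 0.463, and Sox10 an SE of 0.10 and an adjusted p = 0.980.

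Over probe sets, 7 of the 31 members were higher and 24 lower in the Atr p53 mutants, with a median of -0.07, against -0.02 over all probe sets. limma called 0 of the 31 and 0.0% of all probe sets. At an unadjusted p under 0.05 it listed 3 of 31, the Gja1 junction and 2 Pdgfra junctions, against 5.36% of all probe sets. In the authors' deposited table of the p53 comparison, 7 of the 31 had an unadjusted p under 0.05. The share over all probe sets of that table was not counted, so nothing is read from the 7. The smallest step-up p-value there among the 31 was 0.643. The groups did not overlap for 1 member on the higher side (Gja1) and 3 on the lower side (1 Sox10 exon region and the same 2 Pdgfra junctions). Over all probe sets these shares were 4.79% and 5.98%, and over probe sets with a symbol 5.26% and 17.2%.

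**Figure D3:**
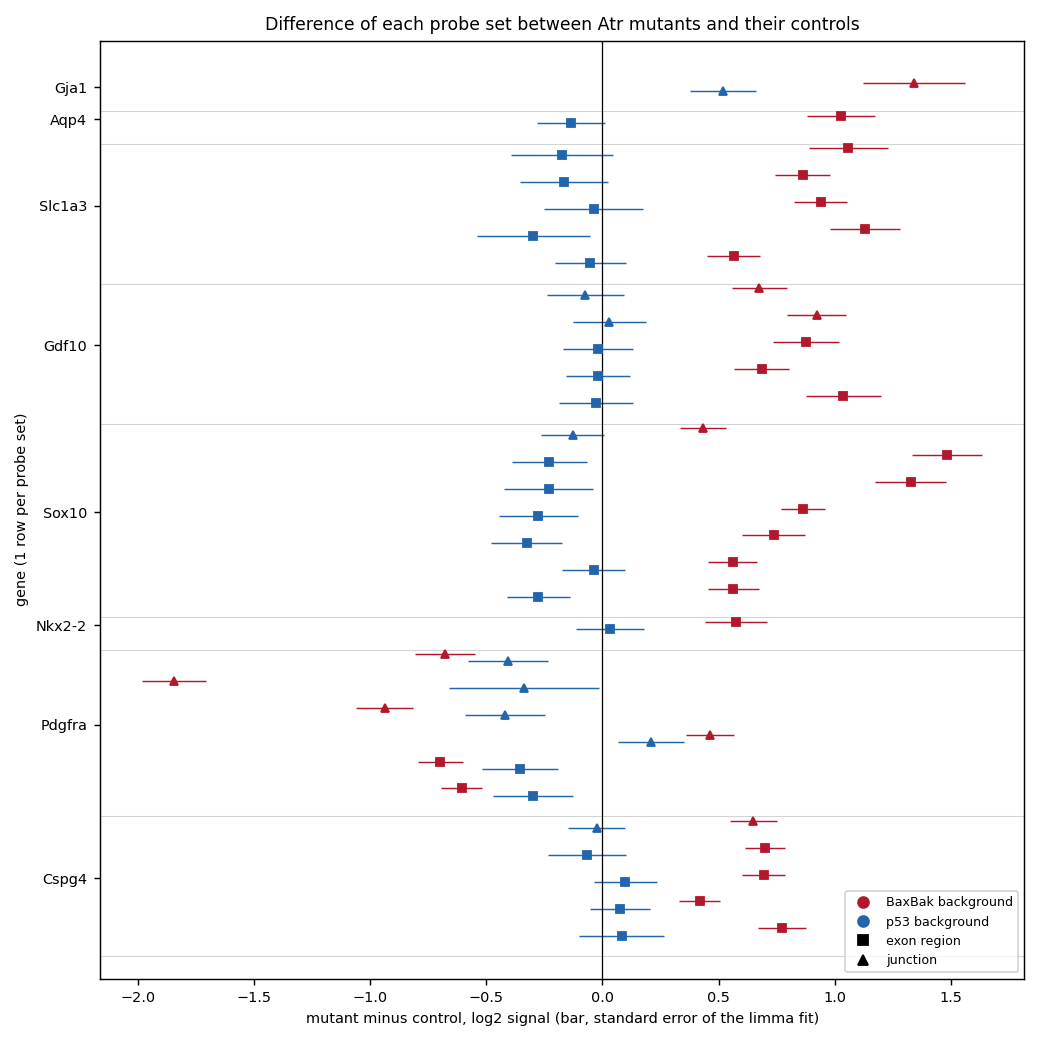
Difference of group means (log2, Atr mutant minus control, horizontal axis) of each of the 31 member probe sets, grouped by gene, in the BaxBak (red) and the p53 (blue) background, with bars of 1 standard error. The BaxBak differences run from -1.84 to 1.48 and the p53 differences from -0.42 to 0.52; the BaxBak contrast chose the members.

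The wider astroglial list gave a similar picture. Of its 63 genes 33 had a symbol, members included, and 31 of these were higher in the Atr BaxBak mutants, with a median of 0.60, beside -0.34 over all named genes. The 2 lower ones, named after their values were seen, were Etv5, an FGF-responsive transcription factor (-0.88), and Wif1, a secreted Wnt inhibitor (-0.50). The 8 brightest other genes of the list were all higher: the metallothioneins Mt2 (1.12) and Mt1 (0.66), the Na,K-ATPase subunit Atp1b2 (0.62), Ttyh1 (0.53), the gliogenic factor Sox9 (0.49), the matrix protein Sparcl1 (0.33), Pla2g7 (0.32) and Ndrg2 (0.28). In the p53 background 13 of the 33 were above 0 and 20 below, with a median of -0.05 beside -0.03 over all named genes. limma called none, with 6 of 33 at an unadjusted p under 0.05, against 19.8% of named genes. Mt2 had the largest p53 difference of the 8, 0.25, with limma's adjusted p = 0.212.

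In the oligodendrocyte list 24 of 39 genes had a symbol, and 23 were higher in the Atr BaxBak mutants, with a median of 0.76, Pdgfra being the exception. Bright genes among the others were Cnp, an enzyme of myelinating cells (1.09), Bcas1, found in early myelinating cells (0.89), Sox8 (0.53), Lhfpl3 (0.49), Olig2, the lineage factor (0.44), Sirt2 (0.40) and Sox6 (0.40). In the p53 background 6 were above 0 and 18 below, with a median of -0.15, while 58.7% of all named genes were below 0. limma called none of the 24, with 4 at an unadjusted p under 0.05, against 19.8% of named genes. The groups did not overlap for 0 of the 24 on the higher side and 5 on the lower side, against 9.02% and 18.0% of named genes. Bcas1, 1 of these 5, differed by -0.42 with limma's adjusted p = 0.173, and Cnp by -0.38 with an adjusted p = 0.263. Against p53 control 1 alone, 11 of the 24 were above 0 and 13 below, and Bcas1 differed by -0.09 and Cnp by 0.06.

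The list of glial fate ligands, receptors and regulators was mixed: 26 of 48 had a symbol, and 17 were higher and 9 lower in the Atr BaxBak mutants. Pdgfa, a ligand of Pdgfra, differed by 0.49, and its receptor by -0.72. Nrg1 (0.51), a ligand of ERBB receptors, and Erbb2 (0.36), such a receptor, were higher, as were Sox2 (0.57), a progenitor factor, and Smad5 (0.25), a BMP signal carrier. Rbpj (-0.45), the nuclear partner of Notch, and Tgfb2 (-0.37), a TGF-beta ligand, were lower. In the p53 background 7 of 26 were above 0 and 19 below. limma called none, with 4 of 26 at an unadjusted p under 0.05, against 19.8% of named genes. The groups did not overlap for 4 genes on the higher side and 3 on the lower side, where 9.02% and 18.0% of named genes lay. Those higher in the Atr p53 mutants were Erbb2 (0.21), Nrg1 (0.17), Pdgfa (0.14) and Gli1 (0.11), with limma's adjusted p from 0.226 to 0.332. Those lower were Erbb4 (-0.29), Smo (-0.24) and Tgfbr1 (-0.12), with limma's adjusted p from 0.110 to 0.353. Gli1, Erbb4, Smo and Tgfbr1 were named after their values were seen.

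**Figure D4:**
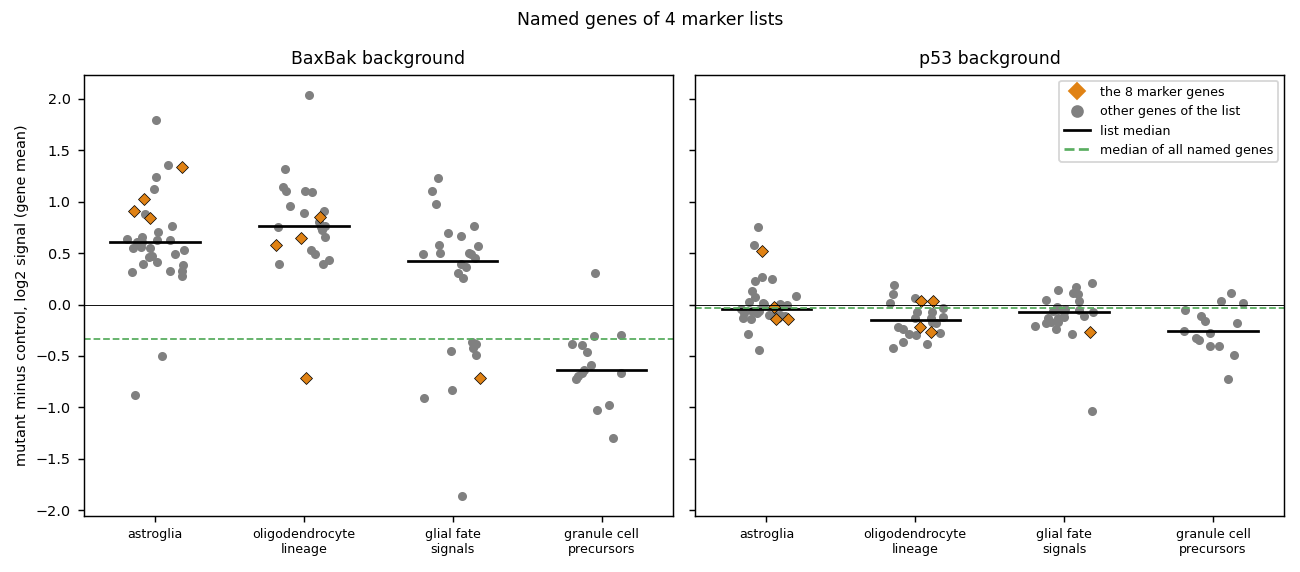
Difference of group means (log2, Atr mutant minus control) of the named genes of each marker list, with a point per gene (diamonds, the 8 members), a bar at the list's median and a dashed line at the median of all named genes, in the BaxBak and the p53 background. In the BaxBak background the astroglial and oligodendrocyte medians are 0.60 and 0.76 and that of granule cell precursors is -0.64; in the p53 background they are -0.05, -0.15 and -0.26.

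Markers of other cell types shifted beside the glial ones in the BaxBak background. All 8 named Purkinje genes (median 0.71), all 6 named GABAergic interneuron genes (median 0.72) and 5 of 6 named microglial genes (median 0.50) were higher in the Atr BaxBak mutants. Gad1 and Slc32a1 are in both the Purkinje and the interneuron list, so these counts overlap. Of the 15 named genes of granule cell precursors, the cells that Math1-Cre targets, 14 were lower, with a median of -0.64. The mean level of that list ran from 9.24 to 9.35 in the Atr BaxBak mutants and from 9.83 to 9.90 in the BaxBak controls, and from 9.31 to 9.63 in the Atr p53 mutants and from 9.67 to 9.82 in the p53 controls. The part of these shifts, and of the higher negative controls of the Atr BaxBak mutants, in the glial differences was not tested. Centred on each array's negative controls, the BaxBak difference was 1.01 for Gja1, 0.70 for Aqp4, 0.59 for Slc1a3, 0.51 for Gdf10, 0.53 for Sox10, 0.25 for Nkx2-2, 0.32 for Cspg4 and -1.04 for Pdgfra.

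Named genes outside the lists whose profiles over the 12 arrays lay nearest to the mean of the 4 astroglial members were Tap1, Trim7 and Mdm4, with root mean square differences of 0.0836, 0.0860 and 0.0948 (log2, each profile centred, 7800 genes ranked). The members themselves lay 0.194 to 0.260 from that mean. Tap1, Trim7 and Mdm4 were averaged over 17, 15 and 13 probe sets, Slc1a3 and Gdf10 over 5 each, and Gja1 and Aqp4 had 1 each. The part of the number of probe sets in these distances was not tested. For the oligodendrocyte members the nearest were Spon1, Pnpla2 and Tmem184b, at 0.0427, 0.0522 and 0.0552, with the members at 0.126 to 0.417, Pdgfra being the farthest. That mean joins Pdgfra, lower in the Atr BaxBak mutants, with Sox10, Nkx2-2 and Cspg4, which were higher. In the BaxBak background the nearest genes differed by 0.37 to 0.39, against 0.58 to 0.85 for Sox10, Nkx2-2 and Cspg4. The 12 arrays share the group structure that chose the named genes, so these distances are a description.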

How the data were processed

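RNA from 12 mouse cerebella (500 ng each, C57BL/6, meninges removed) was hybridised to exon and junction arrays after WT PLUS labelling, per the labels' protocols. One label field calls the RNA poly-A selected and another total RNA. The authors deposited log2 signals per probe set, with Partek named in the submitters' processing notes; how the signals were normalized, and on which build the array was annotated, is not given in the sources here. The authors' deposited tables give fold changes as a signed score (negative where lower), which equal the differences of group means of the log2 signals to 9.27e-05, with p-values and step-up p-values for 34305 probe sets, 2 of which passed 0.05 in the p53 comparison.

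Symbols came from those tables. Probe sets with several symbols (689) were left out, and 50 symbols turned into dates were restored. Of 725678 probe sets, 61 without values and 6546 controls were set aside, and 719071 were tested. A gene's value is the mean log2 signal over its named probe sets. The p53 comparison used limma 3.58.1 (R 4.3.3; lmFit and eBayes, two-sided) on the 6 p53 arrays, with Benjamini-Hochberg adjustment over either the whole set of probe sets or the 7918 named genes and a threshold of 0.05, beside exact permutation tests per gene. The fit was also tested on simulated data with known changes, of which it recovered a part. Summaries used Python 3.11.15 and pandas 2.3.3. Arrays give no counts, so their number limits the precision, and p-values measure only the spread between these samples.

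The members and lists were chosen with earlier results of these data known. Named genes are the members, the 8 other genes of each of the 3 glial lists with the highest mean signal over the 12 arrays, any gene of these lists called in the p53 comparison (there was none), and the 3 nearest profiles per lineage. One gene that this rule names is not reported here. Alternatives tried were median and negative control centring, a filter at the negative controls, exon regions only, the median or the brightest probe set per gene, all 12 arrays, a negative control covariate, the title prefix as a block, and leaving out each array.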

Additional observations from a re-analysis of the deposited data

Results flagged for a closer look

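Of 31 genes named in the 3 glial lists, 11 had every Atr BaxBak mutant above the mean of its controls and every Atr p53 mutant below the mean of its own. The share of all named genes that met this rule was not counted, so no excess is read from the 11. Of all named genes, 40.7% were above 0 in the BaxBak background and 58.7% were below 0 in the p53 background. The difference between the backgrounds was not tested, since the BaxBak arrays chose the named genes. The BaxBak difference minus the p53 difference (log2) was 1.16 for Aqp4, 0.76 for Atp1b2 and 0.43 for Sparcl1 among astroglial genes. Among oligodendrocyte genes it was 1.48 for Cnp, 1.31 for Bcas1, 1.07 for Sox10, 0.66 for Sox8, 0.57 for Sox6, 0.53 for Sirt2 and 0.51 for Olig2. It was 0.71 for Sox2. None of the 11 passed limma's test in the p53 background. Against p53 control 1 alone, which shares the title prefix of the Atr p53 mutants, the p53 difference was above 0 for Aqp4 (0.04), Cnp (0.06) and Sox8 (0.02) and below 0 for the other 8, from -0.00 (Sox2) to -0.11 (Sox6).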

How the results depend on the processing

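No paired analysis was possible because the labels give no replicate numbers; the title prefix that the Atr p53 mutants share with p53 control 1 was used as a block instead. In the p53 comparison limma called 0 probe sets on the 6 p53 arrays as deposited, 12 with negative control centring, 2 above the negative controls, 9 over exon regions, 32 with all 12 arrays and 23 with a negative control covariate; leaving out 1 array gave 0 to 0. It called 64 named genes (41 higher, 23 lower), 172 with negative control centring (80 higher, 92 lower), 42 above the negative controls, 35 over exon regions, 196 with all 12 arrays, 157 with the covariate and 1 with the title prefix as a block. Leaving out 1 array gave 10 (without p53 control 2) to 91 genes, with 27 without Atr p53 mutant 1, 18 without Atr p53 mutant 2 and 21 without p53 control 3. No member gene passed under any of these. Gja1 stayed between 0.44 and 0.61, with adjusted p from 0.0772 to 0.463, and exon regions alone give it no value. The sign of small p53 differences turned with the prefix block for Aqp4 (0.043), Slc1a3 (0.107) and Gdf10 (0.081), with the covariate for Gdf10 (0.017), with negative control centring for Nkx2-2 (-0.031) and Cspg4 (-0.032), and with the brightest probe set for Cspg4 (-0.025). Leaving out 1 array gave -0.084 to 0.097 for Gdf10, -0.041 to 0.13 for Nkx2-2 and -0.039 to 0.10 for Cspg4. Astroglial list genes below 0 in the p53 background numbered 20 of 33, 11 with the block, and 19 to 22 without 1 array. The cause of these changes was not tested. In the BaxBak background 7 of 8 members were higher under both centrings, the filter at the negative controls and both other summaries per gene. The same held without each array, as it had to, since the BaxBak groups overlapped for no member gene. Over exon regions it was 6 of 7, where Gja1 has no value. The BaxBak contrast chose the members, so these counts are a description and lend no support. The covariate and block fits were run for the p53 comparison only. The 12-array fit of the BaxBak comparison is not reported here.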
